A study of Mus musculus with 8 samples.

Results

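The ATP-binding cassette (ABC) transporter genes were examined in I1DN leukemic progenitor cells, sorted as cKit-positive and CD11b-negative from mice that had been transplanted with I1DN leukemic cells. Every row of the deposited expression table whose symbol starts with Abc, a subfamily letter from a to g and a digit was taken. This gave 27 of the 12294 genes in the table. The mice had received AG120 together with AZA (called AG120_AZA), AG120 alone, AZA alone or vehicle for 5 days, and each of the 4 groups had 2 libraries. AG120 is ivosidenib, which blocks the mutant form of the enzyme IDH1, and AZA is azacitidine, a nucleoside drug that traps DNA methyltransferases. All groups carried the same leukemia. The labels tell neither how the I1DN cells were made nor the age or strain of the mice, and although cells were sorted mouse by mouse, no label ties a library to a mouse, so the p-values measure only the spread between these libraries. The study asked what the combined treatment does to gene expression. ABC genes such as Abcb1a, Abca1 and Abcc3 were not among the 27 rows and were not analysed here.

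ABC proteins share an ATP-binding domain, and most of them use ATP to move lipids, drugs, metabolites or peptides across a membrane. Subfamily A moves lipids, subfamily B contains P-glycoprotein, a phospholipid transporter and the mitochondrial ABC proteins, and subfamily C holds the multidrug resistance proteins. Most members of subfamily D import fatty acids into peroxisomes, subfamilies E and F have no membrane domain and act in translation, and subfamily G moves sterols and drugs. In blood cells, ABC genes are known for drug efflux from stem cells and leukemias, for cholesterol efflux, and for porphyrin and iron handling in developing red cells.

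Among the 27 genes, 3 members of subfamily B and 1 of subfamily G were higher in the libraries with AG120. The promoter windows of the 3 subfamily B genes, which moved in the same direction, are printed here. Each runs from 250 bases before to 50 bases after the RefSeq transcript start, in build GRCm38.p6 (the mm10 assembly), in the gene's 5′ to 3′ direction. Capitals mark CACCC or GATAA, letters within the binding motifs of KLF and GATA factors, on either strand (GGGTG and TTATC are their reverse complements). The windows lie at chr5:8893471-8893770 (plus strand) for Abcb4, chr1:75180343-75180642 (minus strand) for Abcb6 and chr8:123983073-123983372 (minus strand) for Abcb10.
Abcb4: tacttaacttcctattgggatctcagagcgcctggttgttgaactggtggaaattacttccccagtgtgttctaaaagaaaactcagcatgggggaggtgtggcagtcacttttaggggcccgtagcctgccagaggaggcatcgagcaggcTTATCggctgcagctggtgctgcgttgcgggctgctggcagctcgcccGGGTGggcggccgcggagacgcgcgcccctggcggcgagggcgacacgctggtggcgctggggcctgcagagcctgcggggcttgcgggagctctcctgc
Abcb6: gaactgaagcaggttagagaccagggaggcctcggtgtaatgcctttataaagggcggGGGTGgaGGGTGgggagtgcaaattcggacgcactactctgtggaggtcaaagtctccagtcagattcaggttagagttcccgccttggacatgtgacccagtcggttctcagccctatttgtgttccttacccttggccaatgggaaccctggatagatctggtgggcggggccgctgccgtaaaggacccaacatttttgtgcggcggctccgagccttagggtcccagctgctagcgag
Abcb10: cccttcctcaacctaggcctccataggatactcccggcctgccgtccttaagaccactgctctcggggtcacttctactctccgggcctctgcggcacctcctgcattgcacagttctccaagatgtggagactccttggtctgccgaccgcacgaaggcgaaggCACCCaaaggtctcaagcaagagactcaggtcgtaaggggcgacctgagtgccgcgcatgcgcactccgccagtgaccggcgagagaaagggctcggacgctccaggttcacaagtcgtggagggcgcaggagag

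Counted from the transcript start, with the base just before it as -1, the Abcb4 window held TTATC beginning at -98 and GGGTG at -50. The Abcb6 window held GGGTG at -192 and at -185, and the Abcb10 window CACCC at -85. These short motifs are common. Of 32851 promoter windows of the same length, 57.5% held CACCC and 25.4% held GATAA on either strand, and the members had CACCC in 20 and GATAA in 4 of the 25 windows available for 19 of them. The motif TGACNNNGC, the core of the element that NRF2 binds, was in 12.4% of all windows and in none of these 3. CG dinucleotides, the sites of DNA methylation, numbered 21 in the Abcb4 window, 13 in the Abcb6 window and 21 in the Abcb10 window, against a median of 7.0 over all windows and 21.0 over the members' windows. Methylation itself was not analysed here, and a match of letters is a description of the window only. No window was listed for Abcg4.

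The levels of the family ranged from values near the lowest in the table to values among the highest. Levels are given as deposited, in log2 CPM, the log2 of a gene's counts scaled to a common library total. The authors had also set these values to a common distribution over the libraries. The libraries were made with QuantSeq, which reads the 3′ end of each polyadenylated transcript, so a level stands for transcript ends and is not divided by transcript length. The median member had a mean over the 8 libraries of 4.22 log2 CPM, which was higher than 48.1% of all genes. Of the 27 members, 19 had a mean of at least 3 log2 CPM, 6 of at least 5 and 1 of at least 9. The summed CPM of the family was between 1336 and 1467 in AG120_AZA, 1335 and 1553 in AG120, 1093 and 1230 in AZA, and 1197 and 1258 in vehicle.

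**Figure D1:**
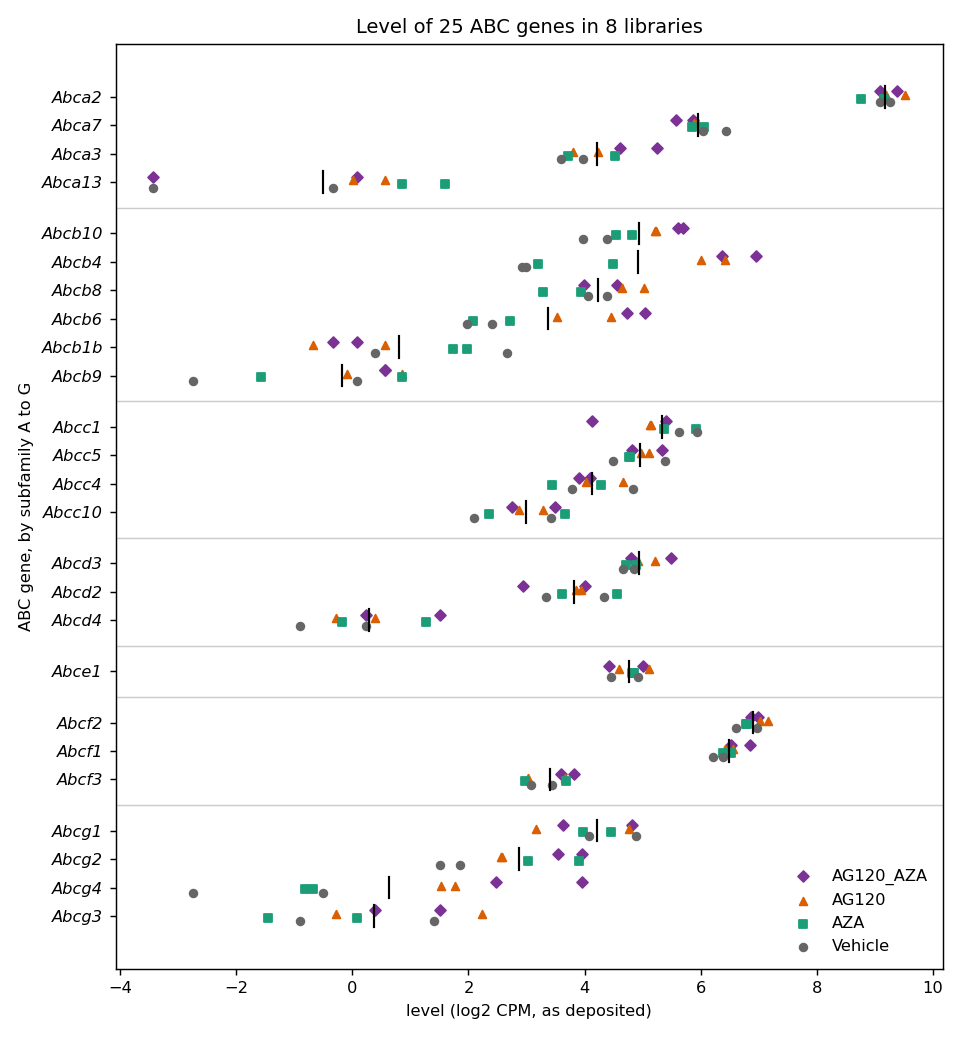
Level of each of 25 ABC genes (rows, ordered by mean level within subfamilies A to G) on the log2 CPM scale, with 1 point for each of the 8 libraries, marker and colour by group, and a black bar at the mean over the 8 libraries. Abca2 lies apart from all others near 9.18, and the points of Abcb4, Abcb6 and Abcg4 split into 2 sets, with the 4 libraries that had AG120 on the right.

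A single gene, Abca2, which encodes an endolysosomal lipid transporter best known from brain, made up from 39.7% to 48.8% of the family's summed CPM in a library. It stood at 9.08 and 9.37 log2 CPM in AG120_AZA, 9.52 and 9.19 in AG120, 9.16 and 8.76 in AZA, and 9.26 and 9.08 in vehicle. The groups overlapped, and its mean of 9.18 was above 98.1% of all genes. Subfamily F came next in level, with Abcf2 at a mean of 6.89 and Abcf1, an initiation factor partner, at 6.48 log2 CPM. Abcf3 was its lowest member at 3.41.

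In subfamily A, Abca7, a lipid transporter with a role in phagocytosis, averaged 5.95 log2 CPM over the 8 libraries and Abca3, which loads phospholipids into lamellar bodies in the lung, 4.21. The lowest was Abca13, a very large protein of little known function, at -0.51. In subfamily B the highest were Abcb10 at 4.94 and Abcb4 at 4.91, which did not differ beyond their spread over libraries, and the lowest was Abcb9, a lysosomal peptide transporter, at -0.19. Abcc1 was highest in subfamily C at 5.33 and Abcc10 lowest at 2.99. In subfamily D, Abcd3 averaged 4.94 and the lowest was Abcd4, which acts in lysosomal export of cobalamin, at 0.29. Abce1, the only member of its subfamily, averaged 4.77, and in subfamily G Abcg1 was highest at 4.22 and Abcg3, a gene found in rodents, lowest at 0.37.

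Depth sets how far the low members can be read. The authors had scaled all libraries to a common distribution, so library totals are unknown. Within a library, however, each distinct value above the lowest stands for at least 1 more read, and the number of such steps is a lower bound on a gene's reads above the lowest class. By this bound the median gene lay 105 steps up in AG120_AZA replicate 2 and 149 steps up in AG120_AZA replicate 1, the extremes of the 8 libraries. AG120_AZA replicate 2 also lay farthest out on principal component 1 (35.7% of the variance). For members given by library, changes that leaving it out moved by over 1.5 times are also given without it, apart from changes near 0. Changes of the other members are given with all libraries in only. Abca2 lay at least 1460 steps up in every library. Abca13, Abcb1b, Abcb9, Abcd4, Abcg3 and Abcg4, with means below 1 log2 CPM, lay fewer than 10 steps up in 4 to 6 of the 8 libraries each, and Abca13, Abcb9 and Abcg4 were at the lowest value in 2, 1 and 1 libraries.

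Members also differed in how much they varied. Abcf2 had the smallest range over the 8 libraries, 0.54 on the log2 scale, and those of Abcf1 and Abce1 were 0.65 and 0.70. The largest ranges were those of Abcg4 (6.70), Abca13 (5.02) and Abcb4 (4.03), and of these only Abcb4 lay at least 45 steps up in every library.

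The effect of AG120 was read over both AZA levels, from the 4 libraries with AG120 over the 4 without it, in an additive limma model across all genes. A gene is called when its Benjamini-Hochberg adjusted p over the 12294 genes is below 0.05. By this test 4 of the 27 members were called, or 14.8%, against 5.85% of all genes. All 4, Abcb4, Abcb6, Abcb10 and Abcg4, were higher, against 3.38% of all genes called higher, and no member was called lower. Without AG120 replicate 1, the 2 called were Abcb4 and Abcb6. The same 4 genes were the only members whose libraries with and without AG120 did not overlap. Such a gap in the higher direction was found in 8% of all genes, and in the lower direction, which no member showed, in 5.99%. Of the 27 members 20 had positive changes (median log2 change 0.22), against 50.7% of all genes (median 0.0075).

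**Figure D2:**
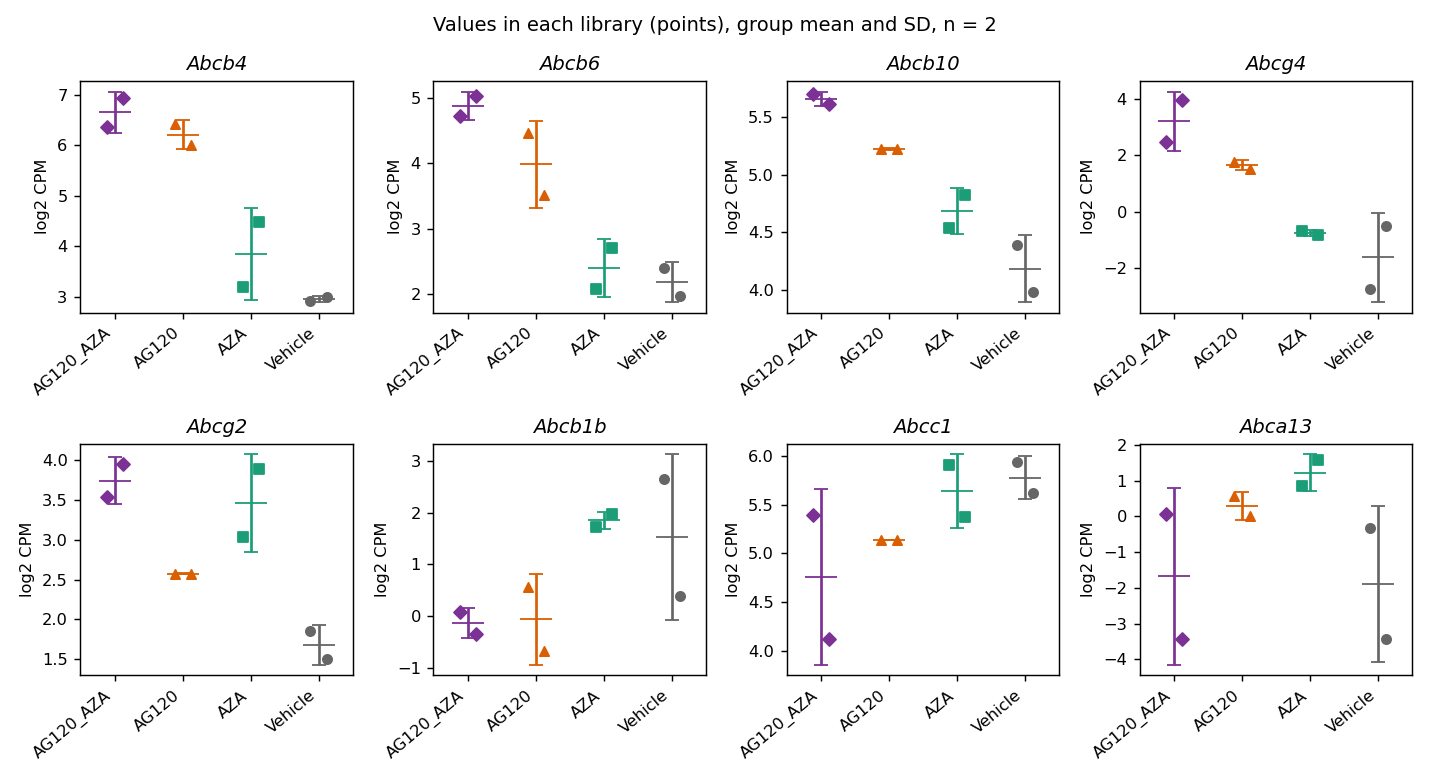
Level (log2 CPM, vertical axis, a separate scale in each panel) of 8 ABC genes in the AG120_AZA, AG120, AZA and vehicle libraries, with a point for each library and a bar with whiskers for the group mean and SD (n = 2). In Abcb4, Abcb6, Abcb10 and Abcg4 all 4 libraries with AG120 lie above all 4 without it, in Abcg2 the 4 libraries with AZA lie highest, and in Abcc1 the AG120_AZA libraries lie apart, at 5.40 and 4.12.

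Abcb4 encodes the transporter that moves phosphatidylcholine to the outer leaflet of the cell membrane, in liver into bile. It stood at 6.36 and 6.94 log2 CPM in AG120_AZA, 6.41 and 6.01 in AG120, 3.20 and 4.48 in AZA, and 2.91 and 2.99 in vehicle. All 4 libraries with AG120 were above 6 and no library without it reached 5. With AG120 its log2 level rose by 3.04 ± 0.28 (SE), or 8.20-fold (adjusted p = 0.000314). In CPM it averaged 102.6 in AG120_AZA, 74.8 in AG120, 15.8 in AZA and 7.75 in vehicle.

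The gene lies at chr5:8893717-8959231 on the plus strand of mm10 (GENCODE M21 gene span), next to Abcb1b at chr5:8798147-8866315, a close paralog that encodes a P-glycoprotein. Reads that fit both genes could be split between them, and the sources used here do not give how such reads were handled. Abcb1b stood at 0.077 and -0.34 log2 CPM in AG120_AZA, 0.56 and -0.68 in AG120, 1.73 and 1.97 in AZA, and 2.66 and 0.39 in vehicle. The libraries with and without AG120 overlapped, and the change of -1.78 ± 0.66 did not pass (adjusted p = 0.133). Abcb1b lay as few as 3 steps above the lowest value.

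Abcb6, known as a porphyrin transporter of mitochondria and other membranes and, in humans, as the carrier of a blood group, was the second member by p. Its values were 4.73 and 5.04 log2 CPM in AG120_AZA, 4.46 and 3.52 in AG120, 2.09 and 2.71 in AZA, and 2.40 and 1.97 in vehicle. Every library with AG120 was above every library without it. With AG120 its log2 level rose by 2.14 ± 0.32, or 4.42-fold (adjusted p = 0.00353). It lies at chr1:75171717-75180392 on the minus strand, and the annotated transcript Gm29253 overlaps its last 500 bases on the same strand, so their reads cannot be told apart.

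Abcb10, a mitochondrial inner membrane transporter needed for hemoglobin production in mouse red cells, stood at 5.70 and 5.61 log2 CPM in AG120_AZA, 5.23 and 5.22 in AG120, 4.54 and 4.82 in AZA, and 4.39 and 3.98 in vehicle. The 4 groups did not overlap. With AG120 its log2 level rose by 1.01 ± 0.19, or 2.01-fold (adjusted p = 0.0103). The call was lost without AG120 replicate 1, with a log2 change of 1.00 (adjusted p = 0.0544). The gene lies at chr8:123952459-123983122 on the minus strand, and Gm20388 and Gm45890 overlap its last 500 bases on the opposite strand. The sources used here do not say whether the authors counted by strand.

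Abcg4, which with Abcg1 moves cholesterol to high-density lipoprotein, lies at chr9:44273188-44288615 on the minus strand. It stood at 2.48 and 3.96 log2 CPM in AG120_AZA, 1.77 and 1.53 in AG120, -0.68 and -0.82 in AZA, and -2.74 and -0.51 in vehicle. The 4 libraries with AG120 lay 18 to 77 steps above the lowest value and the other 4 lay 0 to 4 steps above it, and vehicle replicate 1 was at the lowest value itself. With AG120 its log2 level rose by 3.62 ± 0.69 (adjusted p = 0.0117). The size of this change rests on values near the floor: with 1 CPM added to every value it was 2.14 (adjusted p = 0.00853). The call was lost without AG120 replicate 1 (3.64, adjusted p = 0.0544) and without AG120_AZA replicate 2 (3.26, adjusted p = 0.0618). The sources used here do not give the authors' filter on low values, and a gene this low in the groups without AG120 could have entered the table through the groups with it.

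Most of the listed red cell markers, but not the globin genes, moved with these 4 genes, and their part in the result was not tested. Of the 10 erythroid markers listed, all were measured, none was at the lowest value throughout, and 7 were called higher with AG120, led by Klf1 (3.37 ± 0.25, adjusted p = 7.43e-05), an erythroid transcription factor. The other 3 were the globin genes, with changes of -0.79 for Hba-a1, -0.80 for Hbb-bs and -0.84 for Hbb-bt that did not pass. Those changes average the difference of AG120 from vehicle and that of AG120_AZA from AZA, which were unlike. By mean, all 3 lay below vehicle in AG120, while AG120_AZA lay near AZA. Hba-a1 had means of 6.95 log2 CPM in AG120_AZA and 6.86 in AZA, and Hbb-bt of 8.57 and 8.72. Hbb-bs, for example, had means of 11.26 log2 CPM in AG120_AZA, 8.52 in AG120, 11.01 in AZA and 10.36 in vehicle. The erythroid markers' summed CPM, globins included, was 3981 to 4061 in AG120_AZA, 788.4 to 1979 in AG120, 1890 to 4193 in AZA and 1591 to 2307 in vehicle. In these sums the libraries with and without AG120 overlapped. Of 9 basophil, mast cell and eosinophil markers, 7 were called higher, with sums of 2255 to 3392 in AG120_AZA, 3307 to 3631 in AG120, 1273 to 1310 in AZA and 792.5 to 1102 in vehicle. All 5 progenitor markers were called lower, among them Kit, the gene of a sort marker, at a mean of 4.39 log2 CPM in AG120_AZA, 5.50 in AG120, 6.10 in AZA and 6.45 in vehicle. Kit was thus present in every group, and Itgam, which encodes CD11b, the marker sorted against, was lower, at 3.06 in AG120_AZA, 3.13 in AG120, 3.86 in AZA and 3.22 in vehicle. In such sorted populations, a change in the share of a cell type and a change in RNA per cell cannot be told apart.

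Genes of the pathways around the 4 transporters were read from lists of genes grouped by known function. Of 16 iron-sulfur and heme genes, 11 had positive and the others negative changes with AG120, against 50.7% positive over all genes. The median log2 change of the list was 0.36, against 0.0075 over all genes. Of the 16 genes, 5 were called higher and none lower, where 3.38% of all genes were called higher. Among them were Cpox (2.04 ± 0.23, adjusted p = 0.000938), Alad (1.92 ± 0.22, adjusted p = 0.00101) and Fech (1.61 ± 0.22, adjusted p = 0.00225), enzymes of heme synthesis, and Glrx5, which acts in iron-sulfur assembly (1.00 ± 0.19, adjusted p = 0.0119). Alad, for example, stood at 6.92 and 7.50 log2 CPM in AG120_AZA, 6.75 and 6.19 in AG120, 4.81 and 5.36 in AZA, and 4.97 and 4.54 in vehicle. Alas1 was among the genes with negative changes and was not called. It stood at 5.60 and 3.87 in AG120_AZA, 6.06 and 7.63 in AG120, 6.98 and 6.69 in AZA, and 5.86 and 7.58 in vehicle. Of 15 measured NRF2 and glutathione genes, 10 had positive and the others negative changes with AG120 (median of the list 0.15). Of the 15 genes, 4 were called higher, against the same 3.38%: Gclm, Nqo1, Mgst3 and Gss (log2 changes 1.21, 1.30, 1.77 and 1.13). Mgst3 was low, between 0.85 and 0.98 log2 CPM in the libraries without AG120. Mgst1 and Mgst2 had negative changes that were not called. The means of Mgst1 were -0.24 log2 CPM in AG120_AZA, 1.70 in AG120, 3.705 in AZA and 2.97 in vehicle. Those of Mgst2 were 0.67, 2.76, 3.49 and 2.09 in the same order. Gclm encodes a subunit of the enzyme that starts glutathione synthesis. Of 15 measured genes of LXR signalling and cholesterol handling, 6 had positive changes with AG120 (median of the list -0.058). Only 1 was called higher, the phospholipid-remodelling enzyme gene Lpcat3 (0.66 ± 0.17, adjusted p = 0.0402). In AG120_AZA over vehicle 5 of the heme and iron-sulfur genes and 2 of the NRF2 genes were called, all higher, where 1.63% of all genes were called higher, and AZA over vehicle gave 0 in each of these lists.

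Abcb8, another mitochondrial member of subfamily B, did not pass in this comparison. It stood at 4.55 and 3.99 log2 CPM in AG120_AZA, 5.02 and 4.65 in AG120, 3.28 and 3.94 in AZA, and 4.05 and 4.39 in vehicle. The AG120 libraries were highest and the AZA libraries lowest, and the change with AG120 was 0.64 ± 0.25 (adjusted p = 0.150).

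**Figure D3:**
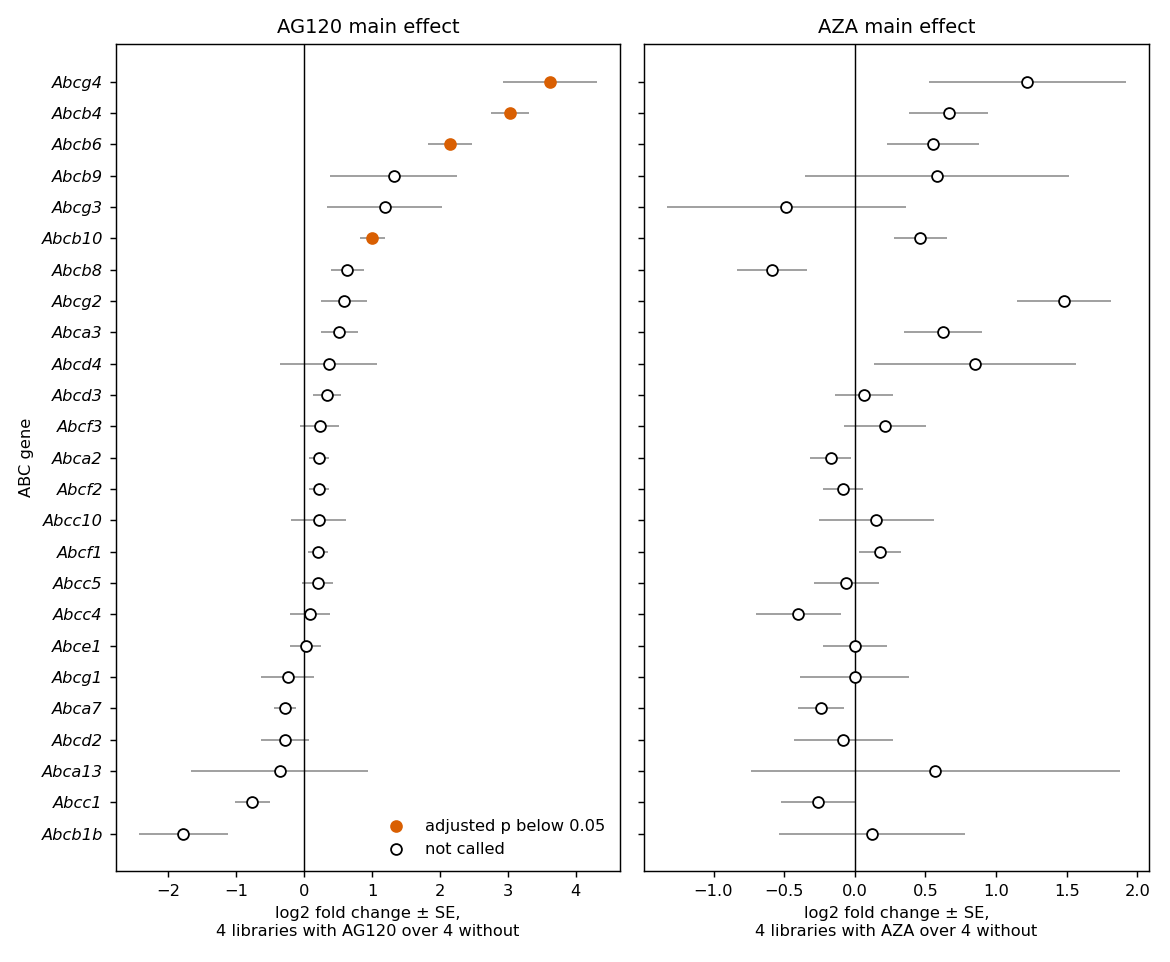
Log2 fold change with its moderated SE (horizontal axis) for each of 25 ABC genes (rows, in order of the AG120 effect), for AG120 (left panel) and AZA (right panel), each from the 4 libraries with the drug over the 4 without it. Filled points are called at an adjusted p below 0.05; there are 4 for AG120 and 0 for AZA.

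AG120_AZA was then compared with vehicle. Here 5 members were called, or 18.5%, against 3.02% of all genes, and all 5 were higher, against 1.63% of all genes. Abcb4 rose by 3.70 ± 0.40 (adjusted p = 0.00198), Abcb6 by 2.70 ± 0.45 (adjusted p = 0.0108), Abcb10 by 1.47 ± 0.27 (adjusted p = 0.0188), Abcg4 by 4.84 ± 1.00 (adjusted p = 0.0293) and Abcg2 by 2.07 ± 0.47 (adjusted p = 0.0421). Of the 27 members 20 had positive changes, with a median of 0.21, against 0.021 over all genes. Here 6 of the 10 erythroid and 5 of the 9 basophil, mast cell and eosinophil markers were called higher and all 5 progenitor markers lower, and their part was not tested. None of the 5 passed without the mean-variance trend (adjusted p = 0.0545 for Abcb4). Without AG120_AZA replicate 2, Abcb4 was the only member called. Without vehicle replicate 1, Abcb4, Abcb6 and Abcb10 were called and the Abcg4 change was 3.73, and without vehicle replicate 2, Abcb4, Abcb6 and Abcg4 were called and that change was 5.96. For Abcg4 it was 5.59 without AG120_AZA replicate 1 and 4.10 without AG120_AZA replicate 2. The vehicle libraries lay near the floor in this gene, and with 1 CPM added to every value its change was 2.90 (adjusted p = 0.0134).

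Abcg2, the breast cancer resistance protein, pumps drugs and porphyrins out of cells and marks the side population of stem cells. It stood at 3.54 and 3.96 log2 CPM in AG120_AZA, 2.58 and 2.57 in AG120, 3.03 and 3.90 in AZA, and 1.86 and 1.50 in vehicle. Both vehicle libraries were lowest, the AG120 libraries came next, and AZA and AG120_AZA overlapped. Its call in AG120_AZA against vehicle was lost in 10 of its 14 alternatives. It was lost without either vehicle library, either AG120 library or either AG120_AZA library, with adjusted p from 0.0531 to 0.284, and likewise with vooma weights (adjusted p = 0.0721). Over both AG120 levels its change with AZA was 1.48 ± 0.33, with all 4 libraries with AZA above all 4 without it, but it did not pass (unadjusted p = 0.000822, limma adjusted p = 0.771). The gene lies at chr6:58584523-58695676 on the plus strand.

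AG120 alone over vehicle gave 1 called member, Abcb4 (3.26 ± 0.40, adjusted p = 0.00770), or 3.70% of the members against 0.578% of all genes, and 0.358% of all genes were called higher. The next by p were Abcb6 (1.80 ± 0.45, adjusted p = 0.115) and Abcb10 (1.04 ± 0.27, adjusted p = 0.139), which did not pass. Abcb4 no longer passed when vehicle replicate 1 was left out (3.22, adjusted p = 0.0584), when AG120 replicate 1 was left out (3.06, adjusted p = 0.0892) or without the mean-variance trend (adjusted p = 0.110). AG120_AZA over AZA gave 2, Abcb4 (2.81 ± 0.40, adjusted p = 0.00811) and Abcb6 (2.49 ± 0.45, adjusted p = 0.0201), or 7.41% of the members against 2.26% of all genes, and 1.06% of all genes were called higher. Abcg4 (3.97 ± 1.00, adjusted p = 0.0661) did not pass, but was called with 1 CPM added to every value (2.71, adjusted p = 0.0219), with only these groups fitted (adjusted p = 0.0433) and without vehicle replicate 1 or 2 (adjusted p = 0.0316 and 0.0420). Its adjusted p ran from 0.0219 to 0.474 over the alternatives. In AG120_AZA over AZA 6 of 10 erythroid and 3 of 9 basophil, mast cell and eosinophil markers were called higher, and 5 of 8 neutrophil markers (median log2 change -3.31) and 4 of 5 progenitor markers lower. In AG120 over vehicle 4 erythroid and 6 basophil, mast cell and eosinophil markers were called higher and 2 progenitor markers lower, and the part of these markers was not tested. Abcb4 and Abcb6 were not called without AZA replicate 1 (2.17 and 2.17, adjusted p = 0.0792 and 0.179) or without AG120_AZA replicate 2 (2.52 and 2.33, adjusted p = 0.0989 and 0.187), nor without the trend (adjusted p = 0.0907 for both). Without AZA replicate 2, the library in which Abcb4 stood at 4.48, its change was 3.46. These comparisons share libraries with each other and with the ones above, so their values are set side by side and not as independent evidence.

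**Figure D4:**
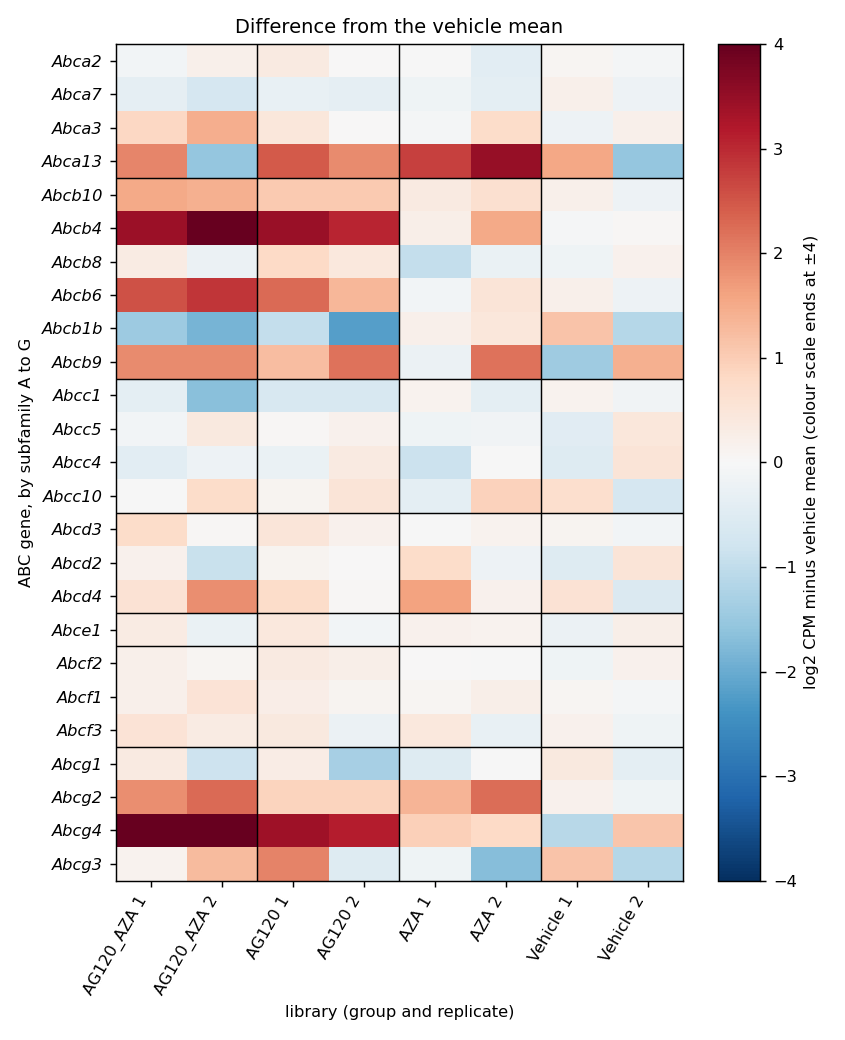
Colour map of the level of each of 25 ABC genes (rows, by subfamily) in each of the 8 libraries (columns, by group) minus its mean over the 2 vehicle libraries, in log2 CPM, with red for higher and blue for lower and the scale ending at ±4. Abcb4, Abcb6, Abcb10 and Abcg4 are red in all 4 libraries with AG120, Abcb10 more lightly than the others. Most other rows are pale. Among the exceptions, Abca13 is red in both AZA libraries, both AG120 libraries and AG120_AZA replicate 1, and Abcg2 in both AZA and both AG120_AZA libraries. Abcb9 is red in both AG120 libraries, both AG120_AZA libraries and AZA replicate 2, and Abcb1b is blue in the libraries with AG120.

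AZA was read in the same ways. Over both AG120 levels, limma called 0 of the 27 members and 0% of all genes. An unadjusted limma p below 0.05 was found for 5 of the 27 members, against 761, or 6.19%, of all genes. After Abcg2, the members with the smallest p were Abcb10 (0.46 ± 0.19) and Abcb8 (-0.58 ± 0.25), each with an adjusted p of 0.771. AZA alone over vehicle gave 0 members and 0% of all genes. Below an unadjusted p of 0.05 were 2 of the 27 members, against 432, or 3.51%, of all genes. Abcg2 (1.79 ± 0.47), Abcb4 (0.89 ± 0.40) and Abca13 (3.10 ± 1.57) led there, each with a limma adjusted p of 1.0. The Abca13 change was 4.65 without vehicle replicate 1, 1.56 without vehicle replicate 2 and 1.26 with 1 CPM added to every value. The Abcb4 change was 0.24 without AZA replicate 2 and 1.53 without AZA replicate 1.

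AG120_AZA over AG120 likewise gave 0 members and 0% of all genes by limma. At an unadjusted p below 0.05 were 3 members of the 27, against 1237, or 10.06%, of all genes. Among these 3 were Abcg2 (1.18 ± 0.47) and Abca3 (0.92 ± 0.39), which did not pass (adjusted p = 0.453 and 0.463), the Abca3 change being 0.60 without AG120_AZA replicate 2. Of the AG120 by AZA interactions, which ask whether the effect of AG120 differs with AZA, 0 members and 0% of all genes were called. There 2 of the 27 members were below an unadjusted p of 0.05, against 765, or 6.22%, of all genes. Vooma weights, the fit without the trend and all other alternatives also called 0 members in these 4 comparisons. Among the members with the smallest p in the interaction were Abca13 (-5.07 ± 2.22) and Abcb6 (0.68 ± 0.64), with adjusted p of 0.794 and 0.855. The Abca13 value was -3.32 without AG120_AZA replicate 2, and that of Abcb6 ran from 0.21 without AG120 replicate 2 to 1.16 without AG120 replicate 1.

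The drug efflux genes of subfamily C were not called in any of the 8 comparisons with all libraries in. Abcc1, the multidrug resistance protein that exports glutathione conjugates, stood at 5.40 and 4.12 log2 CPM in AG120_AZA, 5.13 and 5.14 in AG120, 5.91 and 5.37 in AZA, and 5.94 and 5.62 in vehicle. The libraries with and without AG120 overlapped, and AG120_AZA replicate 2 was by far the lowest. The change with AG120 was -0.76 ± 0.26 (adjusted p = 0.109), and -0.48 without AG120_AZA replicate 2. Without AG120_AZA replicate 1, which leaves that lowest library alone in its group, Abcc1 was called lower in AG120_AZA over vehicle and over AZA. Abcc4, which exports cyclic nucleotides and nucleoside analogues, stood at 3.89 and 4.09 in AG120_AZA, 4.03 and 4.67 in AG120, 3.44 and 4.29 in AZA, and 3.78 and 4.84 in vehicle, with overlap among all groups. Its change was 0.086 ± 0.30 with AG120 (adjusted p = 0.890) and -0.40 ± 0.30 with AZA (adjusted p = 0.821). Abcc5 and Abcc10 had changes of 0.20 and 0.21 with AG120, and neither passed.

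The replicates of Abcg1, the cholesterol efflux transporter, lay far apart. It stood at 4.82 and 3.64 log2 CPM in AG120_AZA, 4.77 and 3.16 in AG120, 3.97 and 4.45 in AZA, and 4.88 and 4.07 in vehicle. Its change was -0.24 ± 0.39 with AG120 (adjusted p = 0.750) and -0.0016 ± 0.39 with AZA (adjusted p = 1.00). The peroxisomal genes Abcd2 and Abcd3 had changes of -0.28 and 0.34 with AG120, and none of the 13 measured genes of peroxisomal oxidation and import was called in that comparison (median 0.20).

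The members that act in translation were not called. Abce1, which splits ribosomes for recycling, had a change of 0.021 ± 0.23 with AG120, and Abcf1, Abcf2 and Abcf3, the kin of yeast Gcn20, had changes of 0.21 ± 0.15, 0.22 ± 0.14 and 0.23 ± 0.29, with adjusted p from 0.386 to 0.966 over the 4. Of 12 partners in ribosome recycling and initiation, 8 had positive changes with AG120 (median of the list 0.20). Only 1 was called higher, where 3.38% of all genes were: Etf1, the release factor that ends translation (0.71 ± 0.15, adjusted p = 0.0214).

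Abca3 stood at 4.61 and 5.24 log2 CPM in AG120_AZA, 4.23 and 3.79 in AG120, 3.72 and 4.52 in AZA, and 3.59 and 3.98 in vehicle. Both AG120_AZA libraries were above the other 6, and the difference from vehicle, 1.14 ± 0.39, did not pass (adjusted p = 0.125). The remaining members not described by library, Abca7, Abcb9, Abcd4 and Abcg3, had changes with AG120 of -0.28, 1.32, 0.36 and 1.19, with SE of 0.17, 0.93, 0.72 and 0.85, and none passed. Of the ABC genes that carry other symbols, Tap1 and Tap2, the peptide transporter of antigen presentation, were measured and were not called in any of the 8 comparisons. Tap2 stood at 4.86 and -0.34 log2 CPM in AG120_AZA, against 5.72 and 5.60 in AG120, 5.68 and 4.45 in AZA, and 5.42 and 5.23 in vehicle, so its low mean there came from 1 library.

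The subfamilies' shares of the family's summed CPM are given as values, with no test. Subfamily B held 16.0% and 16.8% in AG120_AZA, 13.6% and 12.5% in AG120, 6.26% and 8.91% in AZA, and 6.46% and 6.21% in vehicle. Every library with AG120 was above every library without it. This share includes Abcb4, Abcb6 and Abcb10, called above, so it is not separate from their changes. The other subfamily B genes each overlapped between the libraries with and without AG120. Subfamily C held 6.88% and 5.84% in AG120_AZA, 5.80% and 7.84% in AG120, 8.40% and 9.26% in AZA, and 8.58% and 10.3% in vehicle. In this share every library with AG120 was below every library without it. The summed CPM of subfamily C overlapped, however, at 104.7 in AG120 replicate 2 against 103.4 and 101.3 in AZA. Subfamily F held between 15.3% and 19.1% and subfamily A between 46.7% and 56.7% over the 8 libraries. Since the levels are relative, a higher share of subfamily B lowers the shares of the others.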

How the data were processed

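Per the labels' protocols, RNA of cells sorted per mouse was made into QuantSeq 3′ libraries. The submitters' processing notes name HISAT2 2.1.0 and the build mm10 as well as Subread 1.6.3 with featureCounts, edgeR 3.28.1 and limma 3.42.2 under R 3.6.2, cutadapt 1.14 and bcl2fastq 2.17.1.14. The sources used here give no annotation, strand setting or filter. The deposited values are log2 CPM, which the authors had set to one common distribution: every library has a maximum of 13.37.

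The values were used as deposited, with no further scaling or filter. Limma 3.58.1 (R 4.3.3; lmFit, eBayes with a mean-variance trend) was fitted to all 12294 genes, with 4 group means over 8 libraries for the pairwise comparisons and the interaction, and an additive model for each drug over both levels of the other. The p-values are two-sided and Benjamini-Hochberg adjusted over all genes of a comparison. The fit was tested on simulated data. Fold changes have moderated SE and group values SD.

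Genes given in full were those called in any comparison, the 3 with the smallest p where fewer than 3 were called, and the drug and cholesterol efflux genes; Tap2 and Alad were added after their values were seen. The results of 2 members and of 1 listed gene are not reported here by name. The members and lists were chosen with earlier results of these data known. With AG120, the other marker lists had 1 of 6 megakaryocyte, 2 of 6 measured monocyte and macrophage and 1 of 8 neutrophil genes called lower, 0 of 4 primary granule genes called, and none higher. Neither labels nor files name a batch. Coordinates are GENCODE M21 gene spans; all 27 members matched. Promoter windows are from RefSeq (GRCm38.p6).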

Additional observations from a re-analysis of the deposited data

Results flagged for a closer look

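Abca13 moved in opposite directions with AG120 at the 2 levels of AZA: both AG120 libraries lay above both vehicle libraries, and both AG120_AZA libraries lay below both AZA libraries. Its values were 0.077 and -3.43 log2 CPM in AG120_AZA, 0.56 and 0.015 in AG120, 0.85 and 1.59 in AZA, and -0.34 and -3.43 in vehicle. By limma the interaction was -5.07 ± 2.22 on the log2 scale and did not pass (adjusted p = 0.794; 0.345 to 1.00 over its alternatives). Its size ran from -6.82 without AG120_AZA replicate 1 to -3.32 without AG120_AZA replicate 2, and it was -1.84 with 1 CPM added to every value. The gene lay from 0 to 18 steps above the lowest value, at that value in 2 libraries.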

How the results depend on the processing

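Settings were varied by refitting limma to all genes. Without the mean-variance trend, 0 members were called in AG120_AZA over vehicle, 0 in AG120_AZA over AZA and 0 in AG120 over vehicle, while the AG120 effect over both AZA levels still gave 4. With genes of mean log2 CPM of at least 5 only, each of these comparisons gave 0, since Abcb4, Abcb6, Abcb10, Abcg2 and Abcg4 fall below that level and 6 members were left. AG120_AZA over vehicle gave 3 with vooma weights and 2 when only the groups compared were fitted, against 5.

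Leaving out 1 library at a time gave 1 to 5 members in AG120_AZA over vehicle, 0 to 3 in AG120_AZA over AZA, 0 to 1 in AG120 over vehicle and 2 to 4 for the AG120 effect. The 0 in AG120_AZA over AZA came without AZA replicate 1 or AG120_AZA replicate 2, and the 0 in AG120 over vehicle without vehicle replicate 1 or AG120 replicate 1. For the AG120 effect, Abcb4 (2.82 to 3.34, adjusted p 0.000123 to 0.0162) and Abcb6 (1.94 to 2.40, adjusted p 0.00205 to 0.0261) were called under every alternative that tested them. Changes that were not called turned sign when 1 library was left out: with AZA, Abcb1b ranged from -0.37 to 0.54, Abcc1 from -0.49 to 0.022 and Abcg1 from -0.38 to 0.27, and with AG120, Abcc4 from -0.12 to 0.31 and Abcg1 from -0.53 to 0.13. Comparisons with 0 called members had 0 under every alternative. Of 494 refitted values of named genes, 445 kept direction and call, 34 lost the call, 4 gained it and 11 turned sign; the cause was not tested.

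Replicate numbers share no stated animal or day, and same-numbered deviations from the group means correlated from -0.111 to 0.194, so the numbers were not taken as pairs. With a replicate block, AG120_AZA over vehicle called 4 members, without Abcg2 (adjusted p = 0.0528), AG120_AZA over AZA 2, AG120 over vehicle 1 and the AG120 effect 4. With the numbers crossed in AG120_AZA, an alternative chosen after seeing the data, the first gave 5. The 2 libraries a group and the unknown library totals limit what the low members can show.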
